A study of Mus musculus with 29 samples.

Results

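The 9 transcription regulators that mark the layers of the cerebral cortex described here were followed through RNA-seq libraries from mouse medial prefrontal cortex (mPFC) tissue, neuron and microglia co-cultures, and primary microglia. They are the upper-layer genes Cux1, Cux2 and Rorb and the deep-layer genes Bcl11b (also called Ctip2), Fezf2, Tbr1, Foxp2, Sox5 and Tle4. The 9 genes were taken by symbol, and each matched 1 of the 48709 Ensembl identifiers in the count tables. The mPFC libraries came from 3-month-old male C57BL/6J mice that received lipid nanoparticles in the PFC on both sides, carrying either anti-miR-99b, an LNA oligonucleotide that inhibits miR-99b-5p, or sc-control, a scrambled LNA (3 mice each). The PFC of a single side was collected 5 days later, so the nanoparticle injection is shared by both groups. The co-culture libraries came from CD1 cortical neurons of embryonic day 17.5 that were kept for 48 hours with CD1 microglia of postnatal day 1, and the microglia had been treated for 48 hours beforehand, in 7 libraries with anti-miR-99b and in 8 with sc-control. Primary CD1 microglia of postnatal day 1 were also sequenced alone, with 4 libraries for either treatment. The embryonic and postnatal days are those of the donors. The paper states that neurons and microglia had been grown in culture for days before use.

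Projection neurons of the cortex are born in sequence and settle in layers, and a small set of nuclear proteins sets and keeps their identity. Cux1 and Cux2 are homeobox proteins of neurons that connect cortical areas, and Rorb is a nuclear receptor of layer 4, a layer that is thin or missing in mouse prefrontal cortex. Fezf2 and Bcl11b are zinc finger proteins of layer 5 neurons that project out of the cortex, with Fezf2 acting upstream of Bcl11b. Tbr1, a T-box protein, Foxp2, a forkhead protein, Sox5, an HMG-box protein, and Tle4, a Groucho-type co-repressor, are found mainly in layer 6, where Tbr1 and Sox5 restrain Fezf2 and Bcl11b. Bcl11b and Foxp2 are also strongly expressed in the projection neurons of the striatum.

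The inhibited microRNA belongs to a family of 3 with the same seed, shown because the seed (bases 2 to 8, in capitals) is what was searched for. The mature sequences are from RefSeq (GRCm38.p6), and miR-99b-5p lies on the plus strand at chr17:17830194-17830215.
miR-99b-5p: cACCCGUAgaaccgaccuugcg
miR-99a-5p: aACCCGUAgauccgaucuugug
miR-100-5p: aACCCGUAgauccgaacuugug
The 7-base match to this seed, TACGGGT, was searched on the transcript strand of the annotated 3′ untranslated regions (GENCODE M21). None of the 9 genes held it, and it was found in 1.19% of 20862 protein-coding genes. The shorter match to bases 2 to 7, ACGGGT, which lies inside the 7-base match, was found in Cux2 and Sox5 and in 5.85% of the same genes. It is shown in capitals with its flanks, because these are the letters nearest to a seed match in the set.
Cux2, position 1188 of a 3′ untranslated region of 4229 bases: gaaggtgtccACGGGTctgcggaact
Sox5, position 4281 of a 3′ untranslated region of 4839 bases: tgacatgctgACGGGTccctgtcctc
These are matches of letters in the annotation, and no binding was measured here. Other kinds of site were not searched, so a gene without a match could still be a target.

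Co-culture libraries held between 23269839 and 37901110 counted reads. The other ranges were from 24482309 to 36475236 per mPFC library and from 21324156 to 35013400 per microglia library. Every library pair within a group differed by more than counting noise, with a chi-square per degree of freedom of at least 1.44. In the mPFC the summed level of 10 projection neuron genes such as Slc17a7 and Camk2a was 13112 to 14342 CPM (counts relative to the library size, scaled with TMM factors), and no gene of that list was at 0. The microglia libraries had a summed level of 10 microglia genes of at least 11927 CPM and a sum of the projection neuron genes with a lowest value of 83.1 CPM. The libraries were sequenced on lanes 6 and 7 (mPFC), 4 to 7 (co-culture) and 5 and 6 (microglia), with both groups on every lane.

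The layer genes differed widely in level in the sc-control mPFC. Levels between genes were compared as TPM, counts divided by the length of a gene's joined exons and scaled to a common total. Tbr1 was highest with 108.7 ± 2.31 TPM (SD, n = 3, range 106.4 to 111.0), Fezf2 followed with 79.4 ± 3.16 TPM, Tle4 with 51.8 ± 3.78 TPM and Cux2 with 46.4 ± 0.802 TPM. Bcl11b had 34.99 ± 1.26 TPM and Cux1 12.8 ± 0.184 TPM. Sox5 (10.0 ± 0.650 TPM) and Rorb (8.36 ± 1.497 TPM) came next and their ranges overlapped, so these neighbours were not set apart, and Foxp2 was lowest with 3.50 ± 0.302 TPM. All other neighbours in this order had ranges that did not overlap.

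The order was another one in the sc-control co-cultures. Bcl11b came first with 58.9 ± 1.58 TPM (SD, n = 8), ahead of Tbr1 with 53.9 ± 1.27 TPM, and Cux1 came after them with 26.2 ± 0.951 TPM. Cux2 (24.2 ± 0.661 TPM) overlapped Tle4 (22.6 ± 0.901 TPM). Fezf2, next to Tbr1 in the tissue, was far down the order here with 8.46 ± 0.317 TPM, followed by Sox5 with 7.28 ± 0.340 TPM. Foxp2 (6.14 ± 0.335 TPM) and Rorb (6.13 ± 0.386 TPM) closed the order and overlapped. With the longest transcript of each gene as its length, 6 of 9 genes took another rank in the co-culture and 2 of 9 in the mPFC. In the co-culture Tbr1 then came first, ahead of Bcl11b, and Fezf2 fell below Sox5 and Foxp2. The order thus depends on the gene model, also for genes whose ranges did not overlap.

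**Figure D1:**
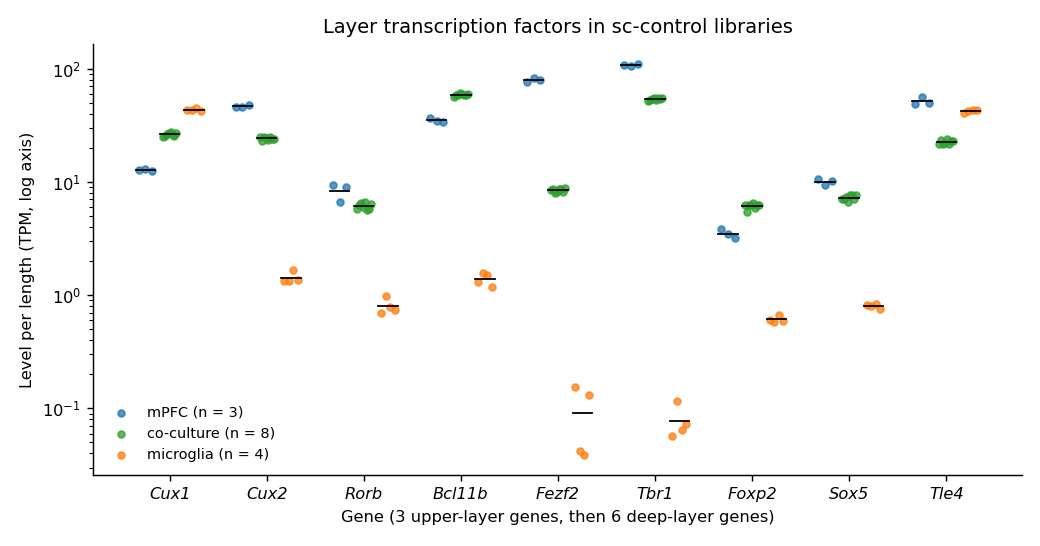
Level per length (TPM, log axis) of the 9 genes in the sc-control libraries of mPFC (3 mice), co-culture (8 libraries) and microglia (4 libraries), with a point per library and a black line at each mean. Fezf2 is at 79.4 TPM in the mPFC and 8.46 TPM in the co-culture, and in microglia Cux1 and Tle4 stand above 40 TPM while the other 7 genes are at or below 1.67 TPM in every library.

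Microglia alone held 2 of the 9 mRNAs at a high level, Tle4 somewhat below its mPFC level and Cux1 well above it. Cux1 had 42.7 to 45.0 TPM and Tle4 40.7 to 43.2 TPM in the 4 sc-control libraries, and these overlapped. The next genes were Cux2 (1.43 ± 0.162 TPM) and Bcl11b (1.39 ± 0.177 TPM). Sox5, Rorb and Foxp2 were between 0.581 and 0.984 TPM, and Fezf2 and Tbr1 had 1 to 5 counts per library. The Cux1 locus also encodes a Golgi protein, CASP, from a transcript that shares its first exons, and counts per gene do not separate the products. To set these levels against the mixed samples, the summed microglia genes were taken as a measure of microglial RNA. They reached 0.938% of their level in pure microglia in the sc-control co-culture and 5.08% in the sc-control mPFC. At these shares, and at the level of cultured microglia, microglial RNA would give 2.39 of 129.1 CPM of Cux1 in the co-culture and 12.9 of 64.4 CPM in the mPFC, and 0.660 of 31.6 CPM and 3.58 of 74.2 CPM of Tle4. For each of the other 7 genes that part would be at most 1.04% of the level.

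Between sc-control co-culture and sc-control mPFC, Fezf2 showed the largest difference of the 9. Its log2FC (co-culture over mPFC, edgeR's quasi-likelihood test on 11 libraries) was −3.26 ± 0.041 (SE), with 60.5 CPM in the tissue and 6.31 CPM in the culture. Tle4 (log2FC −1.23 ± 0.039) and Tbr1 (−1.05 ± 0.032) were also lower in the culture, and Cux1 was higher (1.00 ± 0.038). A call required a log2FC beyond 1 with an adjusted p-value under 0.05, and 4 of 9 genes were called, 1 higher and 3 lower, where 35.1% of all 17678 genes tested were called, 14.7% higher and 20.4% lower. The share of the layer genes called was thus close to that of all genes.

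Cux1 sat at the limit of that rule, and its log2FC was 0.951 when genes needed at least 10 counts in every library and 0.992 with RLE factors, so its call was lost. Cux2, at −0.97 ± 0.032, was just outside. Bcl11b (0.72 ± 0.038) and Foxp2 (0.78 ± 0.064) were higher in the culture, and Sox5 (−0.50 ± 0.052) and Rorb (−0.50 ± 0.085) lower, all with smaller differences. Rorb was the only one of the 9 whose libraries overlapped between the sample types, while 76.5% of all genes did not overlap. All 9 genes had an unadjusted p under 0.05, as did 85.8% of all genes. Strain, age, tissue and time in culture differ together between the sample types and cannot be told apart. Lane numbers 6 and 7 occur in both sample types, and whether the same number marks the same run is not given.

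Bcl11b and Fezf2, which act in the same layer 5 pathway, thus went in opposite directions between the sample types. Other deep-layer genes, a list of 20, were called lower in 10 cases and higher in 2, with a median log2FC of −1.04 where the median over all genes was −0.01. Ccn2, a marker of the deepest layer (37.1 CPM in tissue, 2.55 CPM in culture, log2FC −3.85), Oprk1 (−5.30) and Hs3st4 (−3.09) were among the lower, and Ntsr1, a receptor of layer 6 neurons that project to the thalamus, was higher (9.90 against 101.0 CPM, log2FC 3.36), as was Nfib (1.198). Of 18 other upper-layer genes 5 were called higher and 3 lower, with a median log2FC of 0.40. Cdh13 (2.63) and Nectin3 (1.57), both adhesion molecules, were higher and Lamp5 (−5.00) lower.

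Genes of progenitors and newborn neurons also differed between the sample types. Of 16, 9 were called higher in the co-culture and none lower, among them Dcx (log2FC 4.98), Sox11 (4.38) and Eomes, the T-box relative of Tbr1 (0.180 CPM in tissue, 7.68 CPM in culture, log2FC 5.37). Their part in the differences of the layer genes was not tested. Of 14 relatives of the layer genes, 4 were called higher and 4 lower. Tle1 (log2FC 1.201) was higher while Tle4 and Tle2 (−1.21) were lower, and Sox6 (1.504) was higher while Sox5 was lower. Bcl11a (0.71) and Bcl11b had almost the same log2FC.

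The makeup of the set, each gene's share in the summed TPM of the 9, restates these levels. In the sc-control mPFC Tbr1 took 30.5% ± 0.757, Fezf2 22.3% ± 0.723 and Bcl11b 9.83% ± 0.417 (SD, n = 3). In the sc-control co-culture Bcl11b took 27.5% ± 0.335, Tbr1 25.2% ± 0.421 and Fezf2 3.96% ± 0.164 (SD, n = 8). Cux1 took 3.59% ± 0.055 in the tissue and 12.3% ± 0.260 in the culture, and the shares of Cux2 were 13.0% ± 0.217 and 11.3% ± 0.403.

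**Figure D2:**
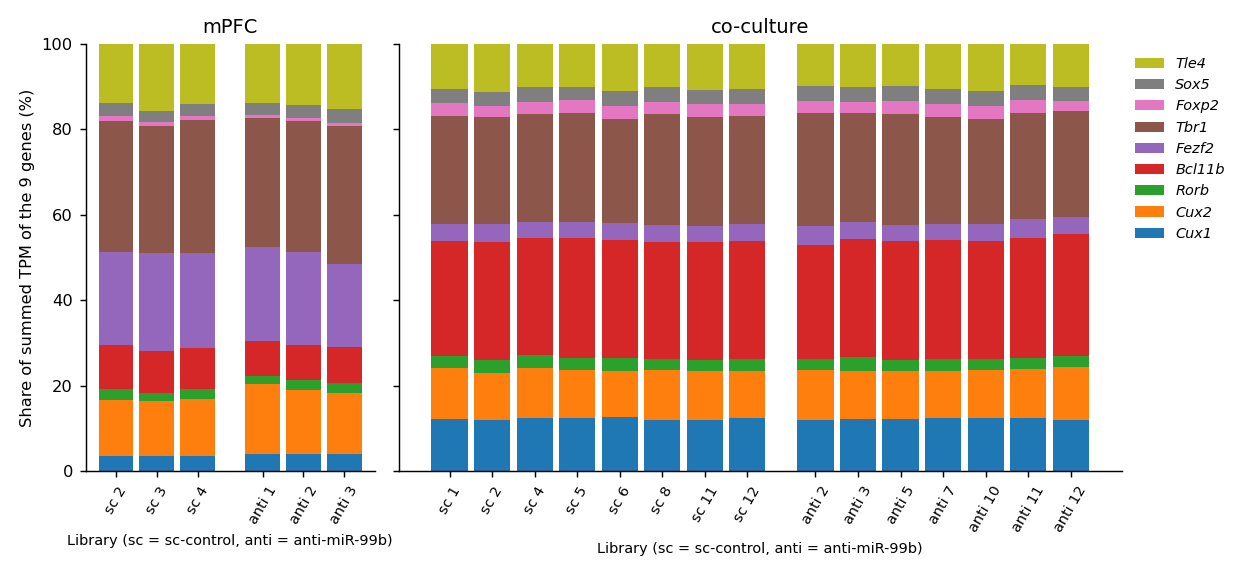
Share of each gene in the summed TPM of the 9 genes (percent, stacked bars that sum to 100), a bar per library, for 6 mPFC and 15 co-culture libraries, with sc-control at left and anti-miR-99b at right in each panel. Fezf2 takes 21.6% to 23.1% of the sc-control mPFC sum and 3.72% to 4.14% of the sc-control co-culture sum, and in the mPFC the Bcl11b share is smaller in all 3 anti-miR-99b mice.

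In the mPFC, the question was whether the layer genes differed after inhibition of miR-99b-5p. None of the 9 genes passed the threshold (log2FC beyond 0.2 with an adjusted p-value under 0.1), as was the case for almost all genes, since 0.0864% of 17364 genes tested were called, all of them higher. Below that threshold, Bcl11b, Fezf2, Foxp2 and Tle4, all deep-layer genes, had lower values in every anti-miR-99b mouse than in every sc-control mouse. That is 4 of 9, where 5.81% of all genes were lower without overlap. By TPM, which carries no TMM factor, Bcl11b, Fezf2 and Foxp2 were lower without overlap, as were 3.44% of genes, and Tle4 overlapped. For Fezf2 the groups all but touched, at 76.33 TPM (highest anti-miR-99b) and 76.34 TPM (lowest sc-control). Cux1 (13.1 to 14.2 against 12.6 to 12.9 TPM) and Cux2 (47.4 to 56.8 against 45.8 to 47.3 TPM) were higher without overlap, as were 8.96% of genes. Over the 9 genes 7 had a log2FC below 0, as had 49.4% of all genes, and their median log2FC was −0.12 against 0.0025 over all genes.

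Bcl11b was at 56.4, 54.2 and 55.8 CPM in mice 1, 2 and 3 given anti-miR-99b, while sc-control mice 2, 3 and 4 had 76.0, 68.9 and 69.4 CPM. All anti-miR-99b mice were lower, and the gap between the groups exceeded the range within either. Its log2FC was −0.36 ± 0.068 (SE, 95% interval −0.52 to −0.21), and edgeR's quasi-likelihood test gave an adjusted p-value of 0.180, from 3.2e-04 before adjustment. The exact permutation test gave 0.1 (two-sided), the smallest p that 3 mice against 3 allow. The call depended on the method. The adjusted p-value was 0.0077 with DESeq2, 0.0036 with no filter on low counts, 0.011 with a factor of unwanted variation and 0.051 with the lane as a block, it ranged from 0.088 to 0.970 with a mouse left out, and all 13 alternatives gave a log2FC between −0.39 and −0.32. Within lane 6 (2 mice against 2) the log2 ratio was −0.39 and within lane 7 (1 mouse against 1) −0.31.

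Foxp2 was at 9.92, 9.43 and 11.9 CPM after anti-miR-99b, against 16.05, 13.9 and 13.2 CPM after sc-control, in the same order of mice. The groups did not overlap, but the anti-miR-99b mouse 3 and the sc-control mouse 4, both on lane 7, lay close together. The log2FC was −0.46 ± 0.119 (95% interval −0.73 to −0.20, unadjusted p = 0.0029, adjusted p-value = 0.359 by edgeR), and it was −0.63 within lane 6 and −0.16 within lane 7. The adjusted p-value was 0.0128 with no filter on low counts, 0.089 with a factor of unwanted variation, 0.126 with DESeq2, 0.2003 with the lane as a block and 0.151 to 0.970 with a mouse left out.

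Fezf2 had 57.1, 54.6 and 47.9 CPM against 59.9, 61.5 and 60.9 CPM. The sc-control mice were close to each other and above all anti-miR-99b mice, of which mouse 3 was lowest. The log2FC was −0.19 ± 0.077 (95% interval −0.36 to −0.02, unadjusted p = 0.032, adjusted p-value = 0.648 by edgeR), with −0.12 within lane 6 and −0.35 within lane 7. Tle4 had 67.1, 66.9 and 70.5 CPM against 72.0, 78.1 and 72.4 CPM. These groups did not overlap but came close to each other, and the log2FC of −0.12 ± 0.066 had an unadjusted p of 0.099. Thus 3 of 9 genes had an unadjusted p under 0.05, as did 7.64% of all genes.

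The other deep-layer genes overlapped between the groups. Tbr1, the most abundant of the set, had 141.4, 137.9 and 143.0 CPM against 153.7, 142.5 and 153.8 CPM, with a log2FC of −0.09 ± 0.063. Sox5 had 36.03, 35.7 and 36.4 CPM against 39.0, 32.7 and 37.3 CPM, with a log2FC of −0.01 ± 0.080 whose sign turned when the sc-control mouse 2 or 4 was left out. Counts of Sox5 and Cux1 may include reads of the antisense genes Sox5os1 and Gm16599, whose exons overlap theirs, because the strand setting of the counting is not given in the sources used here.

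Among the upper-layer genes none was set apart between the groups by CPM, while Cux1 and Cux2 were by TPM. Cux1 had 70.1, 66.3 and 64.6 CPM against 66.1, 63.3 and 63.6 CPM (log2FC 0.06 ± 0.065), and Cux2 had 140.7, 124.1 and 116.8 CPM against 119.1, 113.3 and 120.5 CPM (0.11 ± 0.079). Cux2 was highest in the anti-miR-99b mouse 1, and within lane 7 the anti-miR-99b mouse was the lower of the pair. Rorb had 17.0, 20.4 and 20.5 CPM against 26.96, 17.99 and 25.1 CPM, with a log2FC of −0.28 ± 0.143. Relative to the mean its spread among control mice was the widest of the 9 genes (coefficient of variation 20.3%). With a mouse left out the log2FC ranged from −0.43 to −0.16 for Rorb and from 0.038 to 0.17 for Cux2.

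**Figure D3:**
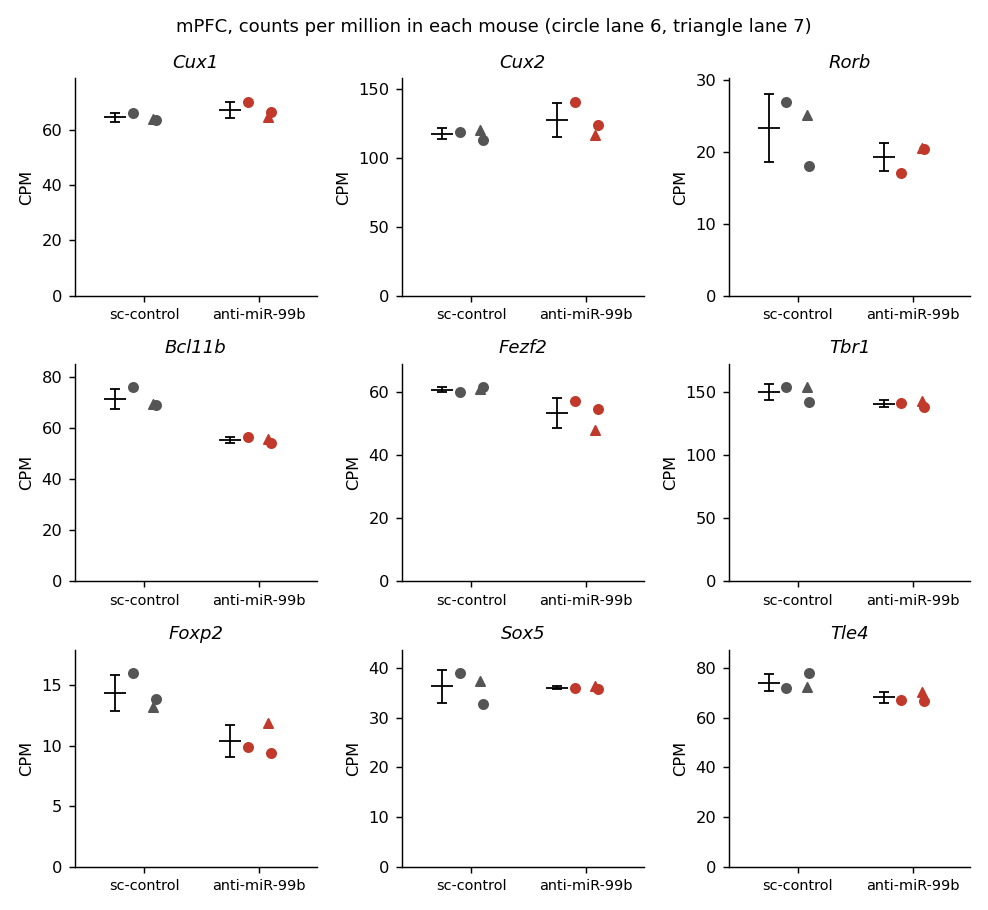
CPM of each of the 9 genes in the mPFC of 3 sc-control mice (grey) and 3 anti-miR-99b mice (red), with circles for lane 6, triangles for lane 7, and a line with bars for the mean ± SD, each axis starting at 0. The groups do not overlap for Bcl11b, Fezf2, Foxp2 and Tle4, where the anti-miR-99b mice are lower, and overlap for the other 5 genes.

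In bulk tissue, fewer cells of a type and less RNA per cell cannot be told apart. A list of 12 genes of striatal projection neurons, cells that also express Bcl11b and Foxp2, was read in the same mice. Of these, 11 had a log2FC below 0 (median −0.31), as had 49.4% of all genes, and none had an unadjusted p under 0.05. Their summed level was 380, 359 and 472 CPM in mice 1, 2 and 3 given anti-miR-99b, against 624.8, 488 and 337 CPM in sc-control mice 2, 3 and 4. The sc-control mouse 2 had the highest striatal sum and also the highest Bcl11b and Foxp2. The sc-control mouse 4 had the lowest striatal sum of all 6 mice, and its Bcl11b (69.4 CPM) and Foxp2 (13.2 CPM) were above those of every anti-miR-99b mouse. Without the sc-control mouse 2 the log2FC was −0.32 for Bcl11b and −0.38 for Foxp2, and 4 of the 9 genes were lower without overlap, as were 8.36% of all genes. Without the sc-control mouse 3 that count was 7, where 13.8% of all genes were. The part of striatal RNA in the levels of Bcl11b and Foxp2 was not tested.

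**Figure D4:**
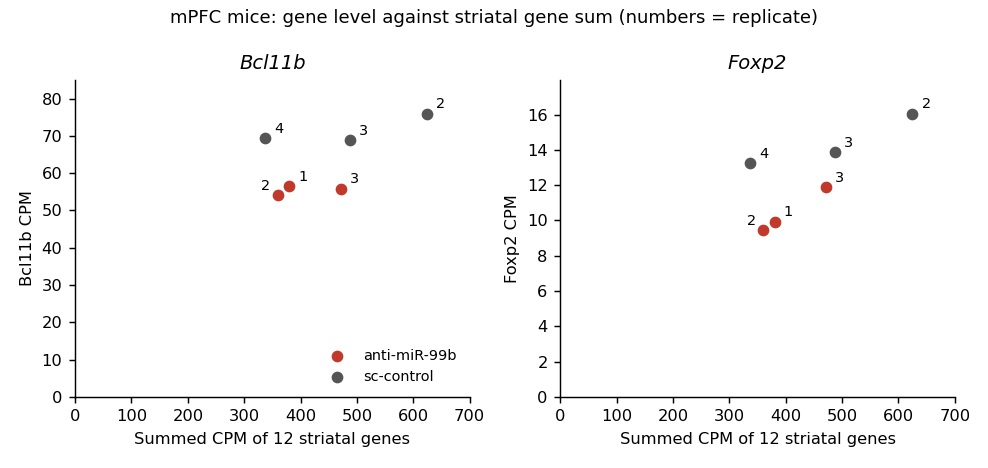
Level of Bcl11b (left) and Foxp2 (right) in CPM against the summed CPM of 12 striatal projection neuron genes, a point per mPFC mouse (grey sc-control, red anti-miR-99b, number = replicate). The sc-control mouse 4 has the lowest striatal sum, 337 CPM, and lies above all anti-miR-99b mice in both panels.

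A list of 20 other deep-layer genes was read in the same mice. None was called, and 17 had a log2FC below 0 (median −0.11), as had 49.4% of all genes. So had 7 of 10 projection neuron, 11 of 12 striatal, 5 of 10 interneuron and 3 of 6 thalamic genes. Of the 20 deep-layer genes, 4 had an unadjusted p under 0.05, all of them lower, as had 7.64% of all genes in either direction. Ccn2, which marks layer 6b, had 31.1 against 37.2 CPM (log2FC −0.26 ± 0.077, unadjusted p = 0.0069), Syt6, a synaptotagmin of layer 6, 28.3 against 34.4 CPM (−0.28 ± 0.092), Parm1 75.7 against 84.2 CPM (−0.15 ± 0.063) and Crym 106.4 against 126.0 CPM (−0.24 ± 0.108). Ccn2, Syt6, Parm1 and Foxp1, a relative of Foxp2 (72.6 against 78.9 CPM), were lower without overlap, as were 5.81% of all genes. The summed level of the 20 was 907, 874 and 868 CPM after anti-miR-99b, against 969, 969 and 949 CPM after sc-control, without overlap. By TPM these sums overlapped, at 1001 to 1164 after anti-miR-99b and 1054 to 1181 after sc-control.

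Of 18 other upper-layer genes, 12 had a log2FC below 0 (median −0.04), where 49.4% of all genes had. Unc5d, a netrin receptor, was the only one of the 18 with an unadjusted p under 0.05 (22.8 against 28.8 CPM, log2FC −0.34 ± 0.099). Their sums overlapped by CPM, at 2285 to 2390 after anti-miR-99b and 2360 to 2521 after sc-control. By TPM the sums did not overlap and were lower after anti-miR-99b, at 1537 to 1573 against 1588 to 1613. Of the 11 relatives of the layer genes that passed the filter on low counts, out of 14, Tle2 was higher (log2FC 0.16 ± 0.068, unadjusted p = 0.044) and Bcl11a lower (−0.14), neither called. The 10 projection neuron genes had a median log2FC of −0.05, with Neurod6, a helix-loop-helix factor of these neurons, at 110.7 against 132.2 CPM (−0.26 ± 0.083, unadjusted p = 0.011). The 10 interneuron genes had a median of 0.0037 and none under 0.05, and 6 of 7 thalamic genes passed the filter, with a median of 0.0072.

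Most microglia genes and all interferon-stimulated genes had a log2FC above 0 in the same mice, and 1 of them was called. Of 10 microglia genes, 9 had a log2FC above 0 (median 0.26, none called). Their sums were 731, 792 and 736 CPM after anti-miR-99b, against 557, 537 and 754 CPM after sc-control. By CPM the sc-control mouse 4 thus lay among the treated. By TPM it was just below all of them, at 1511 against 1526 to 1605. All 15 interferon-stimulated genes had a log2FC above 0 (median 1.01, 1 called, Mx2 with log2FC 1.45). Medians of the 8 astrocyte, 8 oligodendrocyte and 7 endothelial and mural genes were 0.03, 0.03 and 0.06, and the astrocyte and oligodendrocyte sums overlapped between the groups. The part of these differences in the levels of the layer genes was not tested.

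The balance of upper-layer to deep-layer genes was read as the log2 ratio of the summed TPM of Cux1, Cux2 and Rorb to that of the 6 deep-layer genes. It was −1.80, −1.89 and −1.95 in the anti-miR-99b mice (mean −1.88 ± 0.072, SD, n = 3) and −2.16 to −2.06 in the sc-control mice (−2.09 ± 0.054, SD, n = 3), so the ratio was higher in all 3 anti-miR-99b mice. Their difference was 0.21, and 0.16 when coding length replaced exon length. Without Cux1 the means were −2.18 ± 0.080 and −2.40 ± 0.067. The ratio of Bcl11b to Tbr1, both deep-layer genes, also differed without overlap (log2 −1.91 ± 0.016 against −1.64 ± 0.069). This pair was not a planned result, and it sets a gene without overlap between the groups against a gene with overlap. Whether the deep-layer genes differed by a common amount was not tested.

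In the co-culture, anti-miR-99b was given to the microglia only. By the estimate above, their RNA would give at most 2.09% of the level of any layer gene (Tle4). Which of the other cells gave the rest was not measured. None of the 9 was called (log2FC beyond 0.1 with an adjusted p-value under 0.05), against 1.4% of 16193 genes tested, and none had groups that did not overlap, against 0.58%. All 9 had a log2FC below 0, as had 48.4% of all genes, and all were small, from −0.01 for Cux2 to −0.08 for Tle4 (median −0.04). With the replicate number as a block, which keeps 8 of 15 libraries, Cux2, Fezf2, Tbr1 and Sox5 were above 0.

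Bcl11b, which was lower in the mPFC, ranged from 111.7 to 124.2 CPM with a median of 114.9 in the 7 anti-miR-99b libraries and from 111.8 to 121.2 CPM with a median of 117.0 in the 8 sc-control libraries. The ranges lay almost on each other, with a log2FC of −0.02 ± 0.025 (95% interval −0.07 to 0.03). Foxp2 ranged from 20.6 to 26.3 CPM (median 24.6) and from 21.8 to 26.4 CPM (median 25.01), with an interval of −0.14 to 0.05. Fezf2 ranged from 5.44 to 6.93 CPM (median 6.17) and from 5.96 to 6.58 CPM (median 6.45), with an interval of −0.13 to 0.10. The intervals of Bcl11b and Foxp2 in the co-culture therefore did not reach the log2FC measured for them in the mPFC, while the difference between the experiments itself was not tested and delivery, time, strain and age differ between them.

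Tle4 was the only layer gene with an unadjusted p under 0.05 in the co-culture, where 13.2% of all genes had one. It ranged from 28.5 to 32.4 CPM (median 29.6) in anti-miR-99b libraries and from 30.2 to 33.4 CPM (median 31.4) in sc-control libraries, which overlapped. Its log2FC was −0.08 ± 0.034 (95% interval −0.15 to −0.01, adjusted p-value = 0.331 by edgeR), and the lane means were lower with anti-miR-99b on all 4 lanes, with log2 ratios of −0.13, −0.09, −0.0017 and −0.07. Cux1 ranged from 122.1 to 127.8 CPM (median 126.2) and from 124.0 to 136.6 CPM (median 128.7), with a log2FC of −0.04 ± 0.024. Cux2, Rorb, Tbr1 and Sox5 had unadjusted p-values between 0.199 and 0.701.

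**Figure D5:**
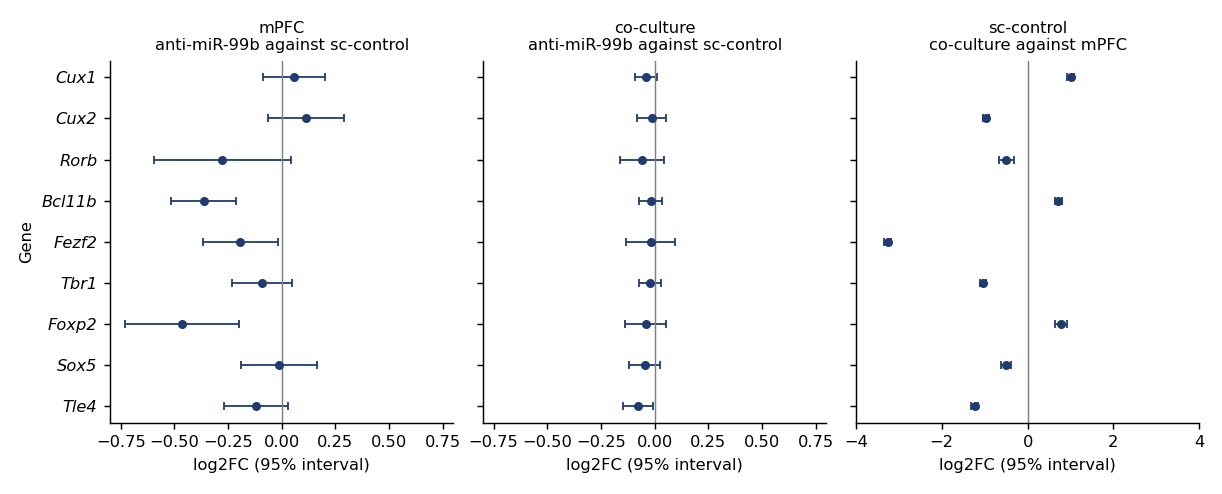
log2FC of the 9 genes with 95% intervals from edgeR's quasi-likelihood fits, for anti-miR-99b against sc-control in mPFC (left) and co-culture (middle, same axis) and for sc-control co-culture against sc-control mPFC (right, wider axis), with a grey line at 0. In the mPFC the intervals of Bcl11b, Fezf2 and Foxp2 lie below 0, in the co-culture only that of Tle4 does and every point is within 0.08 of 0, and at right Fezf2 stands at −3.26.

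Related lists in the co-culture moved as little. Of 19 other deep-layer genes tested 12 had a log2FC below 0 (median −0.04, none called), with Nfia, a nuclear factor of layer 6, at 55.9 against 61.0 CPM (−0.12 ± 0.035, adjusted p-value = 0.076 by edgeR). Of 18 other upper-layer genes 11 were below 0 (median −0.01). Among 12 relatives tested Satb1 (−0.09) and Sox13 (−0.19) had unadjusted p-values under 0.05. Of 10 microglia genes 5 were called higher in these co-cultures (median log2FC 0.28), and 1 of 15 interferon-stimulated genes (Rsad2, log2FC 0.39). In the co-culture the upper-to-deep log2 ratio was −1.48 ± 0.023 (SD, n = 7) with anti-miR-99b and −1.48 ± 0.026 (SD, n = 8) with sc-control.

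Over the 15 co-culture libraries the layer genes varied little, with coefficients of variation from 1.79% (Cux1) to 8.26% (Fezf2) in the anti-miR-99b group and from 2.19% (Tbr1) to 6.38% (Rorb) in the sc-control group. Of the 36 pairs among the 9 genes, Cux1 and Bcl11b were the most alike (Pearson's r = 0.746, permutation p = 0.0013, adjusted over the 36 pairs 0.048, and Spearman's rho = 0.904, permutation p = 3.0e-05, adjusted 0.0011). The correlation was 0.772 without the 2 libraries farthest from the median and 0.744 around the group means. It fell to 0.474 around the lane means, and on lane 4 both genes were low in all 4 libraries (Cux1 122.1 to 124.6 CPM, Bcl11b 111.7 to 115.8 CPM). No lane held 6 libraries, so no value within a lane is given.

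Over all genes tested, those whose log2 CPM followed a layer gene most closely across the 15 libraries were Pou3f3 (r = 0.902), another upper-layer factor, and Tmem151b (0.900) for Cux2, and 6430548M08Rik (0.882) and Myh10 (0.879) for Bcl11b. Eva1a (0.877) and Sdsl (0.844) were nearest to Fezf2, Itga3 (0.854) and Abcb10 (0.849) to Tbr1, and Nbas (0.844) and Synrg (0.826) to Cux1. For Foxp2 they were Ermp1 (0.833) and Ccn2 (0.787), for Sox5 Lingo2 (0.844) and Ipo8 (0.824), for Tle4 Sdk1 (0.840) and Osbpl6 (0.815), and for Rorb Adamts9 (0.785) and Plxdc2 (0.771). These values are a description over libraries that share lanes and cultures, and the highest of so many correlations is high by selection.

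In primary microglia 7 of the 9 genes passed the filter on low counts and none was called (log2FC beyond 0.1 with an adjusted p-value under 0.1), against 0.488% of 14953 genes tested. Cux1 had 250.8 to 262.7 CPM with anti-miR-99b and 249.5 to 260.7 CPM with sc-control (n = 4 each), with a log2FC of 0.0084 ± 0.028, and Tle4 had 68.8 to 72.5 CPM and 69.4 to 71.4 CPM, with a log2FC of −0.0063 ± 0.031. Both groups overlapped for these genes. Cux2, at a low level of 3.42 to 3.84 CPM with anti-miR-99b and 3.87 to 4.87 CPM with sc-control, was the only one without overlap (log2FC −0.25 ± 0.101, adjusted p-value = 0.667 by edgeR), as were 3.44% of all genes.

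By position in GRCm38, Cux1 (chromosome 5, 136248135 to 136567490) and Cux2 (chromosome 5, 121856366 to 122050102) lie on the minus strand, as do Bcl11b (chromosome 12, 107910403 to 108003602), Fezf2 (chromosome 14, 12342094 to 12348189), Rorb (chromosome 19, 18930605 to 19111196), Tle4 (chromosome 19, 14448150 to 14598051) and Sox5 (chromosome 6, 143828425 to 144781977). Tbr1 (chromosome 2, 61802930 to 61814114) and Foxp2 (chromosome 6, 14901349 to 15441977) lie on the plus strand. All 9 are protein-coding, and the values are reads over their annotated exons, which join to between 3047 bases for Fezf2 and 20024 bases for Cux1.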

How the data were processed

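Poly(A) RNA libraries (TruSeq) were sequenced as 50-base single reads by the authors, who aligned them with STAR 2.5.2b to mm10, counted reads per gene with featureCounts 1.5.1 and deposited raw counts without normalization. The annotation release, strand setting and handling of reads that map to several places are not given in the sources used here. Groups came from the sample labels. Replicate numbers and lanes came from library names. No label says which cultures were separate preparations, so p-values measure the spread between these libraries.

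From the deposited counts, each experiment was fitted alone with edgeR 4.0.16 (R 4.3.3, filterByExpr, TMM, quasi-likelihood test, no covariate, Benjamini-Hochberg adjustment over all genes tested), and the sc-control co-culture and mPFC libraries together. The code was tested on simulated data. Single values were compared by exact permutation tests, two-sided, and correlations with 100000 permutations. Symbols, coordinates and lengths came from GENCODE M21 (48349 of 48709 identifiers), with Tle5 found as Aes. The 9 genes and the lists were chosen with earlier results of these data known. Named were the 9 genes, per list up to 5 genes past the threshold or else that with the lowest p, and the 2 genes most correlated with each of the 9. Other genes were named after their values were seen. A gene that this rule names is not reported here. Alternatives were RLE factors, DESeq2 1.42.0, 2 other low-count filters, lane or replicate blocks, RUVs with 1 factor and leaving out each library.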

Additional observations from a re-analysis of the deposited data

Results flagged for a closer look

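In the co-culture, 18 groups of values (9 genes in the anti-miR-99b and sc-control libraries) were checked for a library far from the rest of its group, a check that marks about 1 in 20 groups by chance. It marked 2, both in the anti-miR-99b group. Cux2 was 67.3 CPM in replicate 12, with the other 6 libraries between 55.0 and 60.02 CPM. Rorb was 18.9 CPM in replicate 3, with the other 6 between 15.3 and 15.9 CPM. Neither gene was called by edgeR's test with or without that library, where the log2FC was −0.04 for Cux2 and −0.10 for Rorb.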

How the results depend on the processing

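The thresholds were passed by few genes in the mPFC, and the counts moved with the method. Of 15 genes called higher and 0 called lower, there were 85 and 8 with DESeq2, 297 and 115 with no filter on low counts, 192 and 92 with RUVs, and 73 and 4 with the lane as a block, and 1 to 195 and 0 to 6 with a library left out. The cause was not tested. In the co-culture, 137 higher and 90 lower became 284 and 236 with RUVs, 85 and 36 with the lane as a block, and 89 to 159 and 49 to 141 with a library left out. In microglia 73 called genes became 38 with DESeq2, 167 with no filter, 160 with RUVs and 2 to 409 with a library left out. Of the genes lower in co-culture than in mPFC, 3607, there were 5580 with no filter and 2365 with at least 10 counts in every library, which test more and fewer genes.

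Whether equal replicate numbers mark paired libraries is not given in the sources used here, and so few same-numbered libraries cannot settle it. Deviations of same-numbered libraries from their group means correlated by 0.022 and −0.20 in the mPFC, by −0.0030 to 0.048 in the co-culture and by −0.018 and −0.025 in microglia. With the number as a block, which keeps 4 of 6, 8 of 15 and 4 of 8 libraries, 475 genes were called higher and 43 lower in the mPFC, 70 and 23 in the co-culture, and 249 in microglia. Bcl11b (adjusted p-value 0.0080) and Foxp2 (0.014) were then called lower in the mPFC. With the shared numbers crossed, chosen after seeing the data, 551 higher and 87 lower were called in the mPFC and 486 in microglia. The block turned the sign of Sox5 in the mPFC (0.017) and of Cux2 (0.055), Fezf2 (0.049), Tbr1 (0.0057) and Sox5 (0.0061) in the co-culture.

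For the 9 genes in the mPFC, 104 of 117 alternative values kept the direction and the side of the threshold, 10 passed it (6 of Bcl11b, 3 of Foxp2 and 1 of Fezf2 with RUVs, adjusted p-value 0.099) and 3 of Sox5 changed sign, with a range of −0.081 to 0.042 when a library was left out. In the co-culture, 192 of 198 kept both, and leaving out the anti-miR-99b replicate 7 turned Cux2 (range −0.044 to 0.0053) and Fezf2 (−0.045 to 0.010). Between co-culture and mPFC, 126 of 135 kept both, Cux1 dropped under the log2FC limit in 8, and Cux2 passed it in 1, with at least 10 counts in every library (−1.02). The count of 4 genes without overlap in the mPFC was 4 to 7 with a mouse left out, where 8.36% to 16.5% of all genes were lower without overlap, and 3 by TPM, alternatives added after seeing the data. The upper-to-deep difference in the mPFC was 0.16 with coding length in place of 0.21. By CPM the share of Tbr1 in the mPFC was 24.5% in place of 30.5%, and that of Bcl11b in the co-culture 24.2% in place of 27.5%. With the longest transcript 2 genes in the mPFC and 6 in the co-culture changed rank, and with coding length 2 and 2. The correlation of Cux1 with Bcl11b was 0.474 around lane means, also added after seeing the data. Counts per library were at least 128 for the 9 genes in mPFC and co-culture. Fezf2 in the co-culture had the fewest, 128 to 234. Its counting error is not small beside its coefficients of variation there (8.26% with anti-miR-99b, 3.78% with sc-control). In microglia Fezf2 and Tbr1, at 1 to 5 counts, could not be compared.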
